A study of Mus musculus with 12 samples.

Results

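Rapgef4, Duox1 and Cdh3 are 3 autosomal genes whose chromatin-associated RNA was higher after doxycycline (Dox) in mouse embryonic stem cells (mESCs) built to switch on Xist. They were chosen by their rise with Dox in these data, from total counts with and without Dox, so their change with Dox is given here as a description with no test. They are 3 of the 22556 genes in the count tables, 21630 of which are autosomal. All 12 libraries came from iXist-ChrX, a female XX line from a cross of 129S and Castaneus mice in which a TetOn promoter replaces the endogenous Xist promoter on the 129S X chromosome, so that Dox induces Xist from that chromosome. Wild type (WT) cells carried this inducible Xist intact, with 1 library without Dox and 1 with Dox. XistΔAprec cells lacked the A-repeat of Xist and were sequenced as 3 clones, named C1, 2C2 and C11, each without and with Dox. Their library titles read XistDelA, and they were taken here to be the precise deletion that the study describes. XistΔm6A/11C cells, 1 derived line, lacked the m6A-modified region of Xist near its 5′ end and gave 2 libraries without and 2 with Dox. Treated cells received 1.0 to 1.5 µg/mL Dox for 24 h, and cells without Dox were taken at 0 h. All cells were grown on mitomycin-inactivated mouse fibroblast feeders and pre-plated to free them of feeders before extraction, and RNA was taken from the insoluble chromatin fraction of lysed nuclei (ChrRNA-seq), which is rich in transcripts still being made. No library combined Dox with an Xist that could not be induced, so exposure to Dox and induction of Xist cannot be told apart.

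Rapgef4, also called EPAC2, is a cAMP-activated exchange factor that loads the small GTPases Rap1 and Rap2 with GTP, a branch of cAMP signalling that runs beside protein kinase A. Duox1 is a dual oxidase of the NADPH oxidase family that releases hydrogen peroxide at the cell surface and needs its maturation factor Duoxa1 to leave the endoplasmic reticulum. Cdh3 encodes P-cadherin, a calcium-dependent adhesion molecule that joins neighbouring epithelial cells and is linked to the actin cytoskeleton through catenins, as is E-cadherin (Cdh1), the main cadherin of mESCs.

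Counts on genes numbered 18893447 in the shallowest library, 26552191 in the median one and 36007145 in the deepest, and 44.6 to 47.1% of these could be assigned to a parental genome. Xist served as the check of the Dox labels. In CPM, a gene's counts scaled to 1000000 counts on genes in the library, Xist in WT was 297 without Dox and 5514 with it. In the XistΔAprec clones C1, 2C2 and C11 Xist was 124, 126 and 158 CPM without Dox and 1543, 1267 and 1600 CPM with Dox. In XistΔm6A/11C replicates 1 and 2 it was 100.1 and 85.6 CPM without Dox and 3140 and 4576 CPM with Dox. Xist was thus higher with Dox in every line, and 98.2 to 99.9% of its allelic counts were on the same parental genome in each library. That genome was taken as 129S for this reason, so the share is no check of its name.

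Rapgef4 lies on the forward strand at chr2:71981214-72257474 (mm10), a span of 276261 bases. The annotation lists 11 transcripts for it, 3 of them coding with 3 different starts, and the 31 exons of the longest coding transcript cover 1.51% of the span, so most of the span over which its reads were counted is intron. Without Dox, Rapgef4 was at 40.5 CPM in WT, at 19.3, 22.2 and 29.7 CPM in XistΔAprec clones C1, 2C2 and C11, and at 19.9 and 22.2 CPM in XistΔm6A/11C replicates 1 and 2. With Dox it was at 228 CPM in WT, at 167, 214 and 252 CPM in the same clones, and at 228 and 161.5 CPM in the same replicates. WT was the highest library without Dox and clone C11 the highest with Dox, and the lowest library with Dox was 3.99 times the highest without Dox. The counts behind these levels ran from 419 to 1095 without Dox and from 3404 to 8197 with Dox. In bulk RNA of this kind, more cells that express a gene and more RNA per expressing cell cannot be told apart.

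Duox1 lies on the forward strand at chr2:122315671-122347972, a span of 32302 bases of which its 33 exons cover 16.3%. Without Dox it was barely detected, at 0.666 CPM in WT, at 0.622, 0.523 and 0.920 CPM in clones C1, 2C2 and C11, and at 1.02 and 1.11 CPM in XistΔm6A/11C replicates 1 and 2. With Dox it was at 9.32 CPM in WT, at 5.02, 6.67 and 10.3 CPM in the clones, and at 8.50 and 4.84 CPM in the replicates. The groups did not overlap, with the lowest library with Dox at 4.36 times the highest without it. The levels without Dox rested on only 12 to 24 counts in a library, against 102 to 306 counts with Dox.

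Cdh3 lies on the forward strand at chr8:106510851-106556911, a span of 46061 bases of which its 16 exons cover 9.45%. Without Dox it was at 43.2 CPM in WT, at 37.5, 33.7 and 44.2 CPM in clones C1, 2C2 and C11, and at 48.5 and 37.05 CPM in XistΔm6A/11C replicates 1 and 2. With Dox it was at 98.5 CPM in WT, at 97.9, 85.8 and 99.7 CPM in the clones, and at 167.6 and 60.4 CPM in the replicates. The groups did not overlap, but the gap was small, since the lowest library with Dox was 1.25 times the highest without it. The replicates of XistΔm6A/11C stood at the top and the bottom of the 6 Dox libraries for Cdh3, further apart than the 3 clones or WT.

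No other gene of the count tables overlapped the span of Rapgef4, Duox1 or Cdh3 on either strand. The annotation lists 4 genes on the opposite strand that overlap Rapgef4, which the count tables do not hold, and none that overlap Duox1 or Cdh3. Read pairs that overlap more than 1 gene on a strand were not counted. That all 6 libraries with Dox lay above all 6 without it is fixed by the choice of the genes; among the 16254 genes tested over all libraries, 42 (0.258%) showed the same separation.

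**Figure D1:**
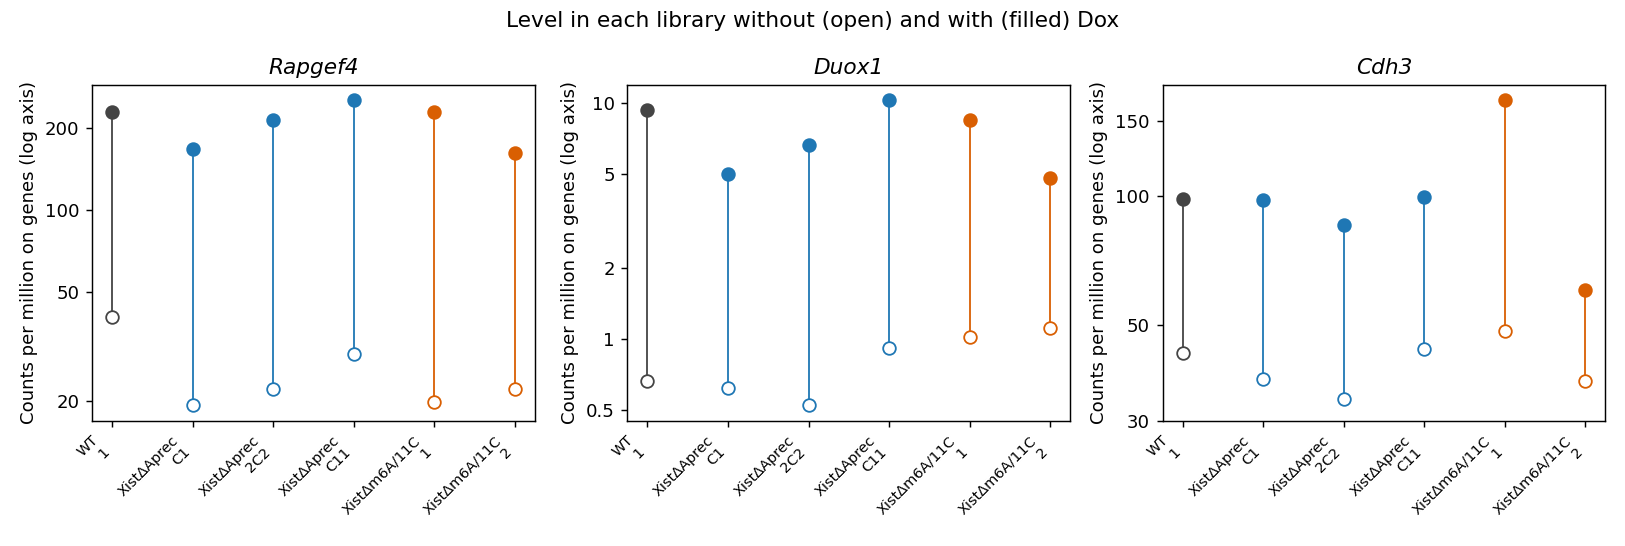
Level of Rapgef4, Duox1 and Cdh3 in each library, in CPM on log axes; open points are without Dox and filled points with Dox, joined within a line and replicate or clone. Every filled point lies above every open point of its panel, with the smallest gap for Cdh3, where XistΔm6A/11C replicate 2 reached 60.4 CPM with Dox.

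Divided by the length of each gene's span, the levels of the 3 genes can be set side by side. The median without Dox was 0.0803 CPM per kb for Rapgef4, 0.0246 for Duox1 and 0.876 for Cdh3, with 22.3% of the tested genes below Rapgef4, 58.0% below Cdh3, and Duox1 at rank 14464 of 16254 from the top. With Dox the medians were 0.799, 0.235 and 2.13 CPM per kb, above 55.5%, 34.8% and 78.3% of the tested genes. Cdh3 was thus an already active gene without Dox, whereas Rapgef4 and Duox1 went from the lower part of the range of expressed genes towards its middle. Duox1 with Dox remained below the median tested gene.

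Changes were computed for 6 pairs, each the Dox and no-Dox library of the same clone or replicate number, after TMM scaling. The log2 change of Rapgef4 was 2.46 in WT, 3.09, 3.20 and 3.08 in clones C1, 2C2 and C11, and 3.45 and 2.95 in XistΔm6A/11C replicates 1 and 2, a mean of 3.04 ± 0.331 (SD, n = 6 pairs); the folds of the pairs averaged 8.38 ± 1.80 (SD, n = 6). For Duox1 the log2 change was 3.73 in WT, 2.96, 3.55 and 3.45 in the clones, and 2.97 and 2.18 in the replicates, a mean of 3.14 ± 0.567 (SD, n = 6 pairs). For Cdh3 the values were 1.16 in WT, 1.37, 1.28 and 1.16 in the clones, and 1.73 and 0.79 in the replicates, a mean of 1.25 ± 0.307 (SD, n = 6 pairs). WT thus had the smallest change of Rapgef4 and the largest of Duox1, and its value for Cdh3 was inside the range of the clones and replicates. In the fit of XistΔAprec alone the log2 changes were 3.12 (SE 0.21) for Rapgef4, 3.37 (SE 0.35) for Duox1 and 1.27 (SE 0.12) for Cdh3. In that of XistΔm6A/11C they were 3.19 (SE 0.23), 2.61 (SE 0.42) and 1.37 (SE 0.41). The XistΔm6A/11C value of Cdh3 went to 0.78 without replicate 1. Whether the lines differ in any of these changes was not tested. WT had 1 library in each state, so its change has no replicate check.

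In CPM the order of the 6 Dox libraries was the same for Rapgef4 and Duox1: clone C11, WT, XistΔm6A/11C replicate 1, clone 2C2, clone C1 and XistΔm6A/11C replicate 2, from the highest to the lowest. After TMM scaling only the top 2, C11 and WT, and the bottom 2 were shared in order. Clone 2C2 then stood above XistΔm6A/11C replicate 1 for Rapgef4 (214.9 against 199.8 scaled CPM) and below it for Duox1 (6.70 against 7.46), and clone C1 was lowest for both, just under XistΔm6A/11C replicate 2 (168.5 against 171.2 for Rapgef4 and 5.07 against 5.13 for Duox1). For Cdh3, XistΔm6A/11C replicate 1 was highest, clone C11 next and XistΔm6A/11C replicate 2 lowest with either scaling, while WT and clone C1, at 98.5 and 97.9 CPM, changed places. By Xist level with Dox the order with either scaling was WT, XistΔm6A/11C replicates 2 and 1, and clones C11, C1 and 2C2. Clone C11 was highest for Rapgef4 and Duox1, and WT ranked 2 for both. XistΔm6A/11C replicate 2 was among the lowest 2 libraries for all 3 genes, and clone C1 for Rapgef4 and Duox1. Whether the members' levels go with the Xist level was not tested, and Xist level cannot be told apart from the line here.

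The levels without Dox also entered the choice of the genes, so the members are set side by side between the deletion lines with no test. Rapgef4 averaged 23.7 ± 5.35 CPM (SD, n = 3) in XistΔAprec and 21.1 ± 1.60 CPM (SD, n = 2) in XistΔm6A/11C, a fitted log2 difference of 0.29 (SE 0.21), which ran from 0.08 without clone C11 to 0.43 without XistΔm6A/11C replicate 2. Duox1 averaged 0.688 ± 0.207 CPM (SD, n = 3) and 1.07 ± 0.0636 CPM (SD, n = 2), a log2 difference of -0.51 (SE 0.40), which ran from -0.37 without clone 2C2 to -0.78 without clone C11. Cdh3 averaged 38.5 ± 5.31 CPM (SD, n = 3) and 42.8 ± 8.09 CPM (SD, n = 2), a log2 difference of -0.03 (SE 0.16), whose sign changed without clone 2C2 or XistΔm6A/11C replicate 1. The library values of Duox1 did not overlap between the lines in CPM, but after TMM scaling clone C11, at 0.951, stood above XistΔm6A/11C replicate 1, at 0.935, on 24 and 22 counts. Over all genes, 11.9% of 15100 tested were higher in XistΔAprec and 11.2% were lower by edgeR. The 3483 genes of that comparison fell to 1119 without clone 2C2 and to 2073 without clone C11. The study's methods speak of 2 biological replicates for each experiment, but the labels do not say whether the XistΔm6A/11C replicates were separate cultures, so the p-values given here measure the spread between these samples.

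The cross allows each gene's RNA to be divided between its Castaneus and 129S copies through reads that cover a difference between the genomes. Castaneus counts of Rapgef4 were higher with Dox in each pair, by log2 values of 2.38 to 3.24, and 129S counts by 2.49 to 3.58. For Duox1 the Castaneus values were 3.29 to 3.74 and the 129S values 1.62 to 3.70, and for Cdh3 they were 0.99 to 1.92 and 0.63 to 1.50. The Duox1 values rest on only 4 to 14 allelic counts in a library without Dox. Both parental copies of all 3 genes were thus higher with Dox in all 6 pairs, which in large part follows from the choice of the genes by a rise of the total counts in the same libraries.

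**Figure D2:**
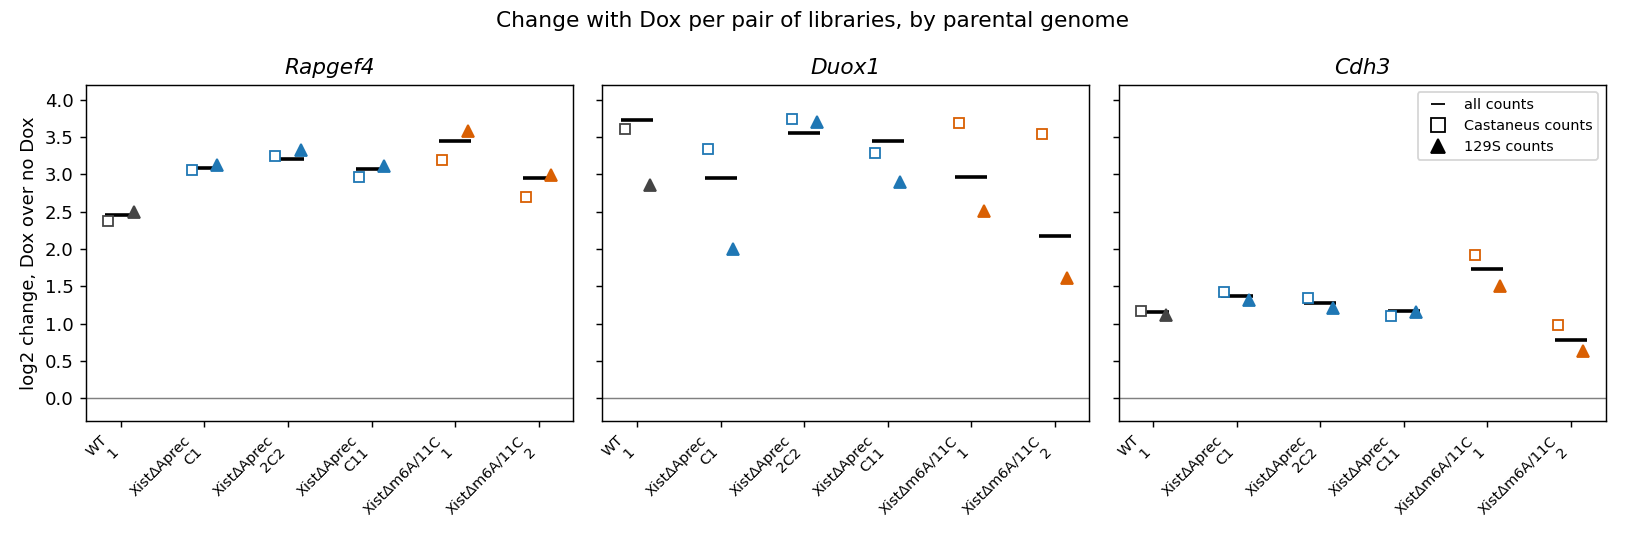
log2 change with Dox over no Dox in each pair of libraries, from all counts (dash), Castaneus counts (open square) and 129S counts (filled triangle), for Rapgef4, Duox1 and Cdh3. All symbols lie above 0. The triangle lies above the square in each pair for Rapgef4, by 0.06 to 0.40, and below it in each pair for Duox1 (differences of -0.035 to -1.93). The Duox1 squares and triangles rest on 4 to 14 allelic counts in a library without Dox.

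The share of Rapgef4 counts from the 129S copy was 58.7% without and 60.6% with Dox in WT. In clones C1, 2C2 and C11 it was 55.0, 56.9 and 57.8% without Dox and 56.1, 58.4 and 60.2% with Dox. In XistΔm6A/11C replicates 1 and 2 it was 47.1 and 42.3% without Dox and 54.0 and 47.5% with Dox. The share was thus higher with Dox in each of the 6 pairs, by 1.07 to 6.89 percentage points, and it was lower in XistΔm6A/11C than in WT and XistΔAprec in both states. The exact 95% interval without Dox held the share with Dox in every pair but that of XistΔm6A/11C replicate 1 (41.2 to 53.2% against 54.0%). Whether the share changed with Dox was not tested. The other genes of chromosome 2, summed, were at 52.2 to 53.1% in every library, and exact 95% Clopper-Pearson intervals set Rapgef4 against them. The interval lay above the chromosome in 6 libraries, WT and clone C11 in both states (54.98 to 62.3% in WT without Dox) and clones C1 and 2C2 with Dox. It lay below it in 2, XistΔm6A/11C replicate 2 in both states (36.5 to 48.3% without Dox). In the other 4, clones C1 (49.45 to 60.4%) and 2C2 (51.3 to 62.4%) without Dox and XistΔm6A/11C replicate 1 without (41.2 to 53.2%) and with Dox (52.66 to 55.4%), it held the chromosome's share. The genes within 1 Mb of Rapgef4 were at 50.2 to 51.7% in XistΔm6A/11C and 52.2 to 53.5% in WT and the clones. Against these the interval of XistΔm6A/11C replicate 1 with Dox lay above its surroundings (51.2%), that of clone C11 without Dox (53.42 to 62.1%) held them (53.47%), and the other 10 stood as against the chromosome. Reads carried no molecular identifiers, so these intervals cover counting error only.

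Duox1 without Dox had 4 to 14 allelic counts in a library, too few to place its share: the values ran from 50.0 to 88.9%, and the interval for clone 2C2 reached from 6.76 to 93.2%. Of the 6 intervals only that of XistΔm6A/11C replicate 2, 51.75 to 99.7% on 9 counts, left out 50.0% and the share of the genes within 1 Mb (48.4%), while it held that of the rest of the chromosome (52.2%). With Dox, on 45 to 142 allelic counts, the 129S share was 44.9% in WT, 45.7, 49.4 and 50.0% in the clones, and 45.1 and 60.0% in the replicates. These values lay around an even contribution of the parental copies, and the interval of every Dox library, such as 36.1 to 53.96% in WT, held 50.0%.

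The 129S share of Cdh3 was 47.9% without and 46.9% with Dox in WT, and 50.0, 46.7 and 48.1% without and 48.2, 44.4 and 49.2% with Dox in clones C1, 2C2 and C11. In XistΔm6A/11C it was 59.9% without Dox in both replicates and 52.8 and 53.9% with Dox. The XistΔm6A/11C replicates were above WT and every clone in both states, and moved by -7.13 and -6.05 percentage points with Dox, against -2.31 to 1.12 points in WT and the clones. Chromosome 8 outside Cdh3 was at 35.3 to 35.7% in every library and the genes within 1 Mb of Cdh3 at 36.6 to 39.96%, so Cdh3 had a higher 129S share than its surroundings in each library.

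**Figure D3:**
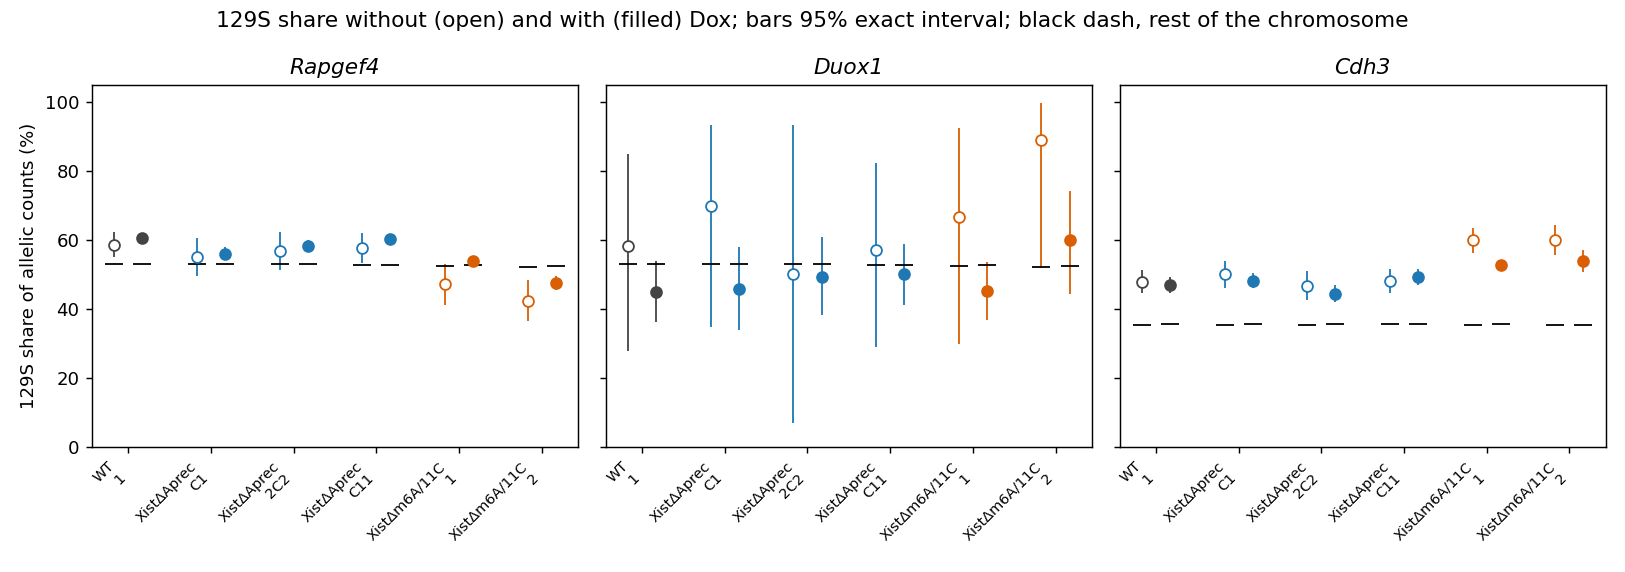
Share of allelic counts from the 129S genome in percent for Rapgef4, Duox1 and Cdh3 in each library without (open) and with (filled) Dox; bars are exact 95% intervals and black dashes the rest of the chromosome. XistΔm6A/11C lies below the other lines for Rapgef4 and above them for Cdh3, and the open Duox1 points rest on 4 to 14 counts.

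The promoters of Rapgef4 and Duox1, and of Duoxa1, whose start faces away from that of Duox1 across a short gap, are shown to compare their sequence. They are RefSeq sequences of build GRCm38.p6, each running from 250 bases before to 50 bases after the start, 5′ to 3′ on the gene's strand: chr2:71980965-71981264 on the forward strand for Rapgef4, chr2:122315422-122315721 on the forward strand for Duox1 and chr2:122313681-122313980 on the reverse strand for Duoxa1. The table held 1 promoter for each of these genes and none for Cdh3. Capitals mark the GC box, GGGCGG or its reverse complement.
Rapgef4: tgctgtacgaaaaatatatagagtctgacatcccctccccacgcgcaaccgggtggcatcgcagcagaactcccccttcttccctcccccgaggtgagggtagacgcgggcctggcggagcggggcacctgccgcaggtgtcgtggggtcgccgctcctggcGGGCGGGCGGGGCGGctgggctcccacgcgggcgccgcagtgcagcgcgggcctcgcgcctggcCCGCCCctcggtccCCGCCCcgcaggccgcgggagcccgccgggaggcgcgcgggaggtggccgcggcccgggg
Duox1: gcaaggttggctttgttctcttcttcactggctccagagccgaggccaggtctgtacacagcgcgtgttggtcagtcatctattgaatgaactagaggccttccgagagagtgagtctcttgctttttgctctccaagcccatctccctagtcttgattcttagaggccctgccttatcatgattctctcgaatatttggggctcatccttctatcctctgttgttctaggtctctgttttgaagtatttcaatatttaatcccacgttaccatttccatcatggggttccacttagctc
Duoxa1: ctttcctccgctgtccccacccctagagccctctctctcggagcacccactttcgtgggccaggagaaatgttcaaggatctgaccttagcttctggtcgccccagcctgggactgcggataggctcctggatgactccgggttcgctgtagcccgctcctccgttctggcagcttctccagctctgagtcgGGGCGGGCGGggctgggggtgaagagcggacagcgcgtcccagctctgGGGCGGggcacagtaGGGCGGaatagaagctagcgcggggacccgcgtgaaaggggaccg

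The Rapgef4 promoter was 76.7% G and C, above 97.3% of the 32851 promoters of the same length, and held 40 CpG dinucleotides and 5 GC boxes, some of which overlap each other. That of Duox1 was 46.7% G and C, above 27.3% of promoters, and held 6 CpG and no GC box. The Duoxa1 promoter was 65.7% G and C, above 83.0% of promoters, with 22 CpG and 4 GC boxes. The median promoter was 52.7% G and C with 7 CpG, so the windows of Rapgef4 and Duoxa1 are CpG-rich and that of Duox1 is not. The Rapgef4 window lies at the start of its span, and its other annotated starts were not read. The GC box was present in 35.7% of all promoters. Searched on both strands with overlaps allowed, the cAMP response element TGACGTCA (1.79% of all promoters), its shorter form TGACG (20.8%), which TGACGTCA contains, the E box CACGTG (7.15%), the CCAAT box CCAAT (37.4%), the TATA box TATAAA (13.6%) and the YY1 core GCCATNTT (6.05%) had no match in any of the 3. The same held for TCCCTATCA (0.131%) and TCTCTATCA (0.24%), parts of the tet operator that the Dox-dependent activator binds. A match or its absence describes these windows, and nothing is drawn from it about the factors.

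Genes next to the members were read for the same contrast, since the rule did not use them. In XistΔAprec the edgeR test without the clone as a term called 3 of 14866 genes higher with Dox (0.0202%; Xist and the members Rapgef4 and Cdh3, from which nothing is read) and none lower (0.0%), so no neighbour passed. At an unadjusted p under 0.05 the count was 2162, DESeq2 called 421, and without clone 2C2 edgeR called 0. With the clone as a term, which removes the differences between clones, 2199 genes were higher (14.8%) and 2211 lower (14.9%). In XistΔm6A/11C edgeR called no gene higher (0.0%) or lower (0.0%) of 15140 tested, with 173 at an unadjusted p under 0.05 and 3 called by DESeq2. With the replicate number as a term 34 genes were higher and 203 lower, though the labels tie those libraries by number alone.

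Within 500 kb of Rapgef4, 6 of 10 genes were tested, and with the clone as a term 3 rose and 1 fell in XistΔAprec. Within 500 kb of Duox1, 14 of 24 were tested, of which 3 rose and 2 fell, and within 500 kb of Cdh3, 20 of 21 were tested, of which 3 rose and 3 fell. Over all tested genes 14.8% rose and 14.9% fell, close to the shares around Cdh3. The median log2 change of the tested neighbours was 0.21, 0.05 and 0.04 around Rapgef4, Duox1 and Cdh3, against 0.01 over all tested genes. It depended on the window, at 0.115, 0.13 and 0.082 within 250 kb and 0.064, 0.049 and 0.061 within 1 Mb. In XistΔm6A/11C the medians within 500 kb were 0.083, -0.059 and 0.078, against -0.001 over all tested genes. No tested neighbour had a fitted log2 change as large as that of its member, but the members were chosen for their rise, so nothing is read from this. The neighbours named here as having risen or fallen did so with the clone as a term, in 3 of 3 clones each, and by edgeR none passed without it. Without the clone as a term edgeR called 0 around each member in XistΔAprec, with 1, 3 and 3 at an unadjusted p under 0.05 and 0, 1 and 0 called by DESeq2 around Rapgef4, Duox1 and Cdh3. In XistΔm6A/11C edgeR and DESeq2 called 0 around each, with 0, 1 and 0 at an unadjusted p under 0.05.

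Duoxa1, the maturation factor, starts 1941 bases before Duox1 on the opposite strand, so that the genes are transcribed away from each other. It had 2 counts without Dox in WT, 5, 5 and 4 counts in clones C1, 2C2 and C11, and 5 and 1 counts in XistΔm6A/11C replicates 1 and 2. With Dox it had 19 counts in WT, 11, 15 and 25 counts in the clones, and 37 and 9 counts in the replicates. All 6 Dox libraries thus had more Duoxa1 counts than any library without Dox, and the ratio of the pooled CPM was 4.49 (exact 95% counting interval 2.83 to 7.44). In XistΔAprec Duoxa1 rose with the clone as a term (log2 change 1.67, SE 0.41, edgeR adjusted p = 0.0027, higher in 3 of 3 clones) and did not pass without it (adjusted p = 0.196). It met the count filter there only through its Dox libraries, and with no count filter and the clone as a term it was again at 1.67 (SE 0.45, adjusted p = 0.00208). In XistΔm6A/11C it was too low to be tested. The other gene pair of the locus, the oxidase Duox2 and its maturation factor Duoxa2, had 17 and 14 counts without Dox summed over the 6 libraries and 35 and 9 with Dox. The ratio was 1.75 (interval 0.956 to 3.33) for Duox2 and 0.547 (interval 0.209 to 1.36) for Duoxa2, so both intervals held 1; Duox2 was higher in 5 of 6 pairs and Duoxa2 in 1 of 6.

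Shf, which encodes an SH2-domain adaptor, has its 3′ end 919 bases past the end of Duox1 on the opposite strand. Without Dox it was at 19.4 CPM in WT, 15.9, 16.9 and 20.1 CPM in the clones and 16.5 and 16.99 CPM in the replicates, and with Dox at 28.0 CPM in WT, 24.3, 27.4 and 27.3 CPM in the clones and 30.9 and 23.0 CPM in the replicates. The groups did not overlap, and the log2 change was 0.43 to 0.84 over the 6 pairs, smaller in each than that of Duox1, which was chosen for its rise. In XistΔAprec Shf rose with the clone as a term (log2 change 0.55, SE 0.08, edgeR adjusted p = 3.02e-06, higher in 3 of 3 clones) and did not pass without it (adjusted p = 0.179). Its value in XistΔm6A/11C was 0.67 (SE 0.24), which did not pass. With the replicate number as a term it passed there (0.67, SE 0.18, edgeR adjusted p = 0.0241), though the labels tie those libraries by number alone. Sord, the nearest tested gene beyond Duoxa1, was at 0.05 (SE 0.07), and Gatm, the nearest beyond Shf, at 0.13 (SE 0.18) in XistΔAprec, and neither passed.

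Around Rapgef4 the nearest tested genes were Pdk1 and Itga6 before its start and Zak and Cdca7 past its end. With the clone as a term, Zak, a stress-activated kinase, rose (log2 change 0.29, SE 0.05, adjusted p = 2.56e-05), Pdk1, a mitochondrial kinase that inhibits pyruvate dehydrogenase, rose (0.15, SE 0.05, adjusted p = 0.0345), and Cdca7 fell by 0.18 on the log2 scale (SE 0.06, adjusted p = 0.0166). The integrin Itga6 was at 0.08 (SE 0.05, adjusted p = 0.239). These changes were small beside the log2 change of 3.12 of Rapgef4, a gene chosen for its rise. The largest change within 500 kb was that of 6430710C18Rik, 488371 bases past the end, which rose by 0.71 (SE 0.18, adjusted p = 0.00339).

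Cdh1 starts 46456 bases past the end of Cdh3 on the same strand. It was between 182 and 242 CPM without Dox and between 166 and 278 CPM with Dox, higher in 3 of 6 pairs, so its groups overlapped. That those of Cdh3 did not is fixed by its choice, and 0.258% of 16254 tested genes had all libraries with Dox above all without it. In XistΔAprec Cdh1 was at a log2 change of 0.08 (SE 0.05, adjusted p = 0.212 with the clone as a term). Tango6, Zfp90 and Smpd3, the other nearest tested genes, were at 0.08, -0.05 and -0.33 and did not pass; both XistΔm6A/11C pairs of Smpd3 were above 0, at 0.02 and 0.10. At the edge of the window Nip7, a ribosome assembly factor, fell by 0.36 (SE 0.08, adjusted p = 0.000915), and before Duox1 4933406J08Rik rose by 0.41 (SE 0.10, adjusted p = 0.00211).

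**Figure D4:**
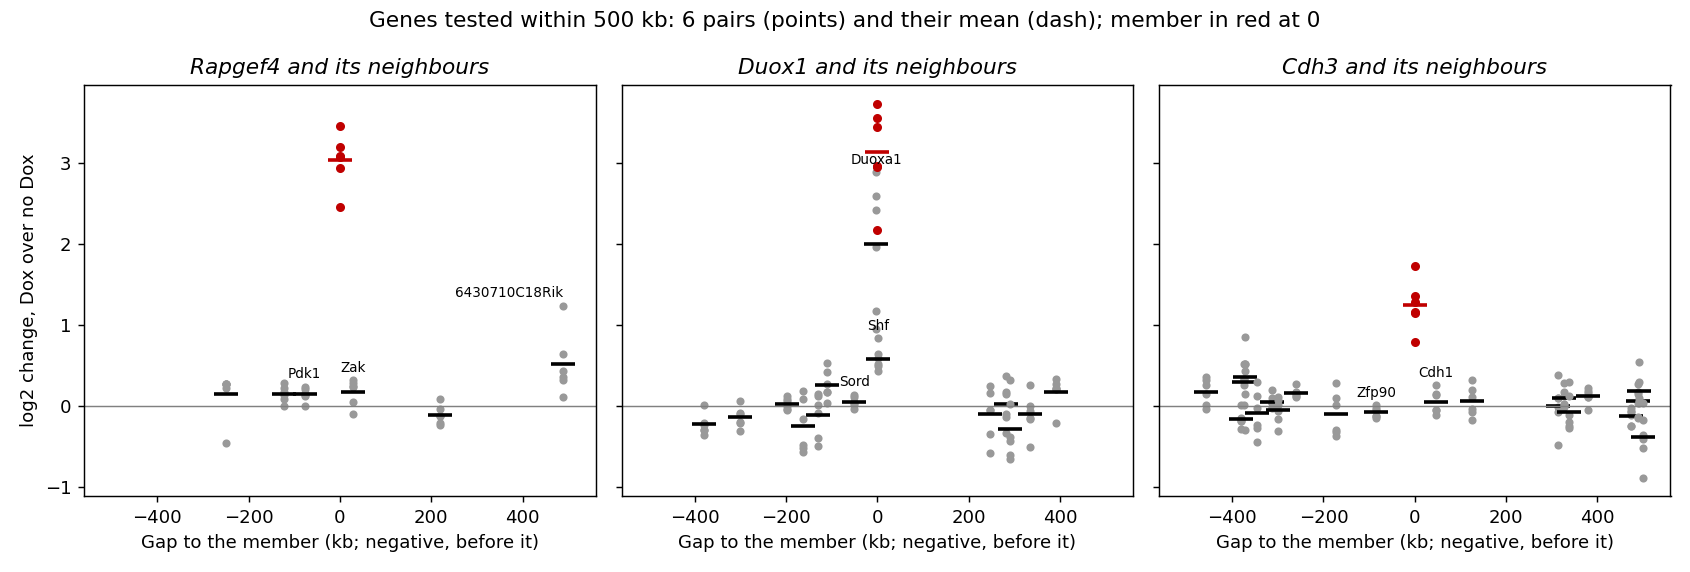
log2 change with Dox of each tested gene within 500 kb of Rapgef4, Duox1 and Cdh3, against its gap to the member in kb; points are the 6 pairs of libraries, dashes their mean, and the member is in red at 0. Duoxa1 and Shf, on either side of Duox1, lie above the other neighbours of that panel, and Cdh1 lies near 0 beside Cdh3.

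The other genes of each member's pathway were read from 3 lists. Every list gene named as having risen or fallen moved in that direction in 3 of 3 clones except Adcy5 and Cdh11, which did so in 2 of 3. Of the 37 tested genes of EPAC, Rap and protein kinase A signalling other than Rapgef4, 15 rose and 2 fell in XistΔAprec with the clone as a term, where 14.8% of all tested genes rose and 14.9% fell, with a median log2 change of 0.18 against 0.01 over all tested genes. Those with the largest changes were the adenylyl cyclases, which make cAMP, Adcy2 (0.55, SE 0.08, adjusted p = 1.15e-05), Adcy5 (0.50, SE 0.17, adjusted p = 0.0244; 0.31 to 0.87 with a clone left out) and Adcy9 (0.48, SE 0.05, adjusted p = 1.32e-07), and the cAMP phosphodiesterase Pde4a (0.43, SE 0.13, adjusted p = 0.016). The GTPase Rap2c, whose gene is on the X chromosome, unlike the others of this list, fell by 0.39 (SE 0.06, adjusted p = 1.2e-05). In XistΔAprec Adcy2, Adcy5, Adcy9 and Pde4a thus moved the same way, but not every cyclase or cAMP phosphodiesterase of the list did. Over the 6 pairs of all lines Adcy2 and Adcy5 were higher in 5, Adcy9 in 6 and Pde4a in 4. Without the clone as a term edgeR called 0 of 37, with 8 at an unadjusted p under 0.05 and 3 called by DESeq2. In XistΔm6A/11C 0 of 36 passed by either tool or at an unadjusted p under 0.05, with a median of 0.11 against -0.001 over all genes.

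The direct partners of Rapgef4 moved little. Rapgef3, the other cAMP-activated exchange factor (EPAC1), was low, at 4.90 to 9.74 CPM without and 4.55 to 9.06 CPM with Dox, with a log2 change of -0.04 (SE 0.12) in XistΔAprec. Of the Rap1 GTPases, Rap1a was at 0.06 (SE 0.05), whereas Rap1b fell by 0.21 (SE 0.05, adjusted p = 0.00236) with the clone as a term, and did not pass without it (adjusted p = 0.33); the pairs of XistΔm6A/11C were at 0.01 and 0.17. The protein kinase A subunits Prkar1a and Prkaca were at 0.10 (SE 0.06) and 0.05 (SE 0.10) and did not pass. Over the pairs of libraries the log2 changes of these genes ran from -0.38 to 0.33. Rapgef4 was chosen for its rise, so a smaller change in its partners is no result about them.

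Of 32 genes for NADPH oxidases and peroxide handling other than Duox1, 23 were tested, of which 3 rose and 10 fell in XistΔAprec with the clone as a term, against 14.8% and 14.9% of all tested genes, with a median log2 change of -0.11 against 0.01. Of the 10 that fell, 2 lie on the X chromosome, Cybb and a peroxiredoxin. Besides Duoxa1, the glutathione peroxidase Gpx8 rose (0.49, SE 0.18, adjusted p = 0.037). Of the 6 peroxiredoxins, enzymes that remove hydrogen peroxide, 4 fell and 2 did not pass: Prdx6 fell by 0.49 (SE 0.05, adjusted p = 5.98e-08) and Prdx1 fell by 0.46 (SE 0.05, adjusted p = 2.27e-08), the largest changes among them. The oxidase subunit Cybb fell by 0.45 (SE 0.13, adjusted p = 0.00679), and Nox4, at 87.1 to 139.5 CPM without Dox the oxidase with the most counts among the direct partners, fell by 0.17 (SE 0.05, adjusted p = 0.0107). Cyba, the partner subunit of Nox4, was at 0.17 (SE 0.15) and did not pass. Without the clone as a term edgeR called 0 of 23, with 10 at an unadjusted p under 0.05 and 3 called by DESeq2, and in XistΔm6A/11C 0 of 22 passed on any of these counts, with a median of -0.04.

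Of 31 cadherins and catenins other than Cdh3, 28 were tested, of which 1 rose and 4 fell in XistΔAprec with the clone as a term, with a median of -0.02. Over all tested genes 14.8% rose and 14.9% fell, close to the 4 of 28 that fell here. Ctnnal1, an alpha-catenin-like protein, rose by 0.19 (SE 0.05, adjusted p = 0.00412). The cadherins that fell were Cdh22 (fell by 0.86, SE 0.28, adjusted p = 0.021, with the XistΔm6A/11C pairs at 0.49 and 0.26, on 8 to 52 counts in a library), Cdh8 (fell by 0.59, SE 0.09, adjusted p = 4.87e-06), Cdh11 (fell by 0.33, SE 0.11, adjusted p = 0.0304; 0.24 to 0.49 with a clone left out) and Cdh2, N-cadherin (fell by 0.19, SE 0.06, adjusted p = 0.00881). No other cadherin of the list rose. The catenins of cadherin junctions, Ctnnb1, Ctnnd1, Jup and Ctnna1, were at -0.11 (SE 0.05), 0.08 (SE 0.05), 0.08 (SE 0.08) and -0.05 (SE 0.05) and did not pass. Without the clone as a term edgeR called 0 of 28, with 1 at an unadjusted p under 0.05 and 1 called by DESeq2, and in XistΔm6A/11C 0 of 27 passed on any of these counts, with a median of -0.01.

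**Figure D5:**
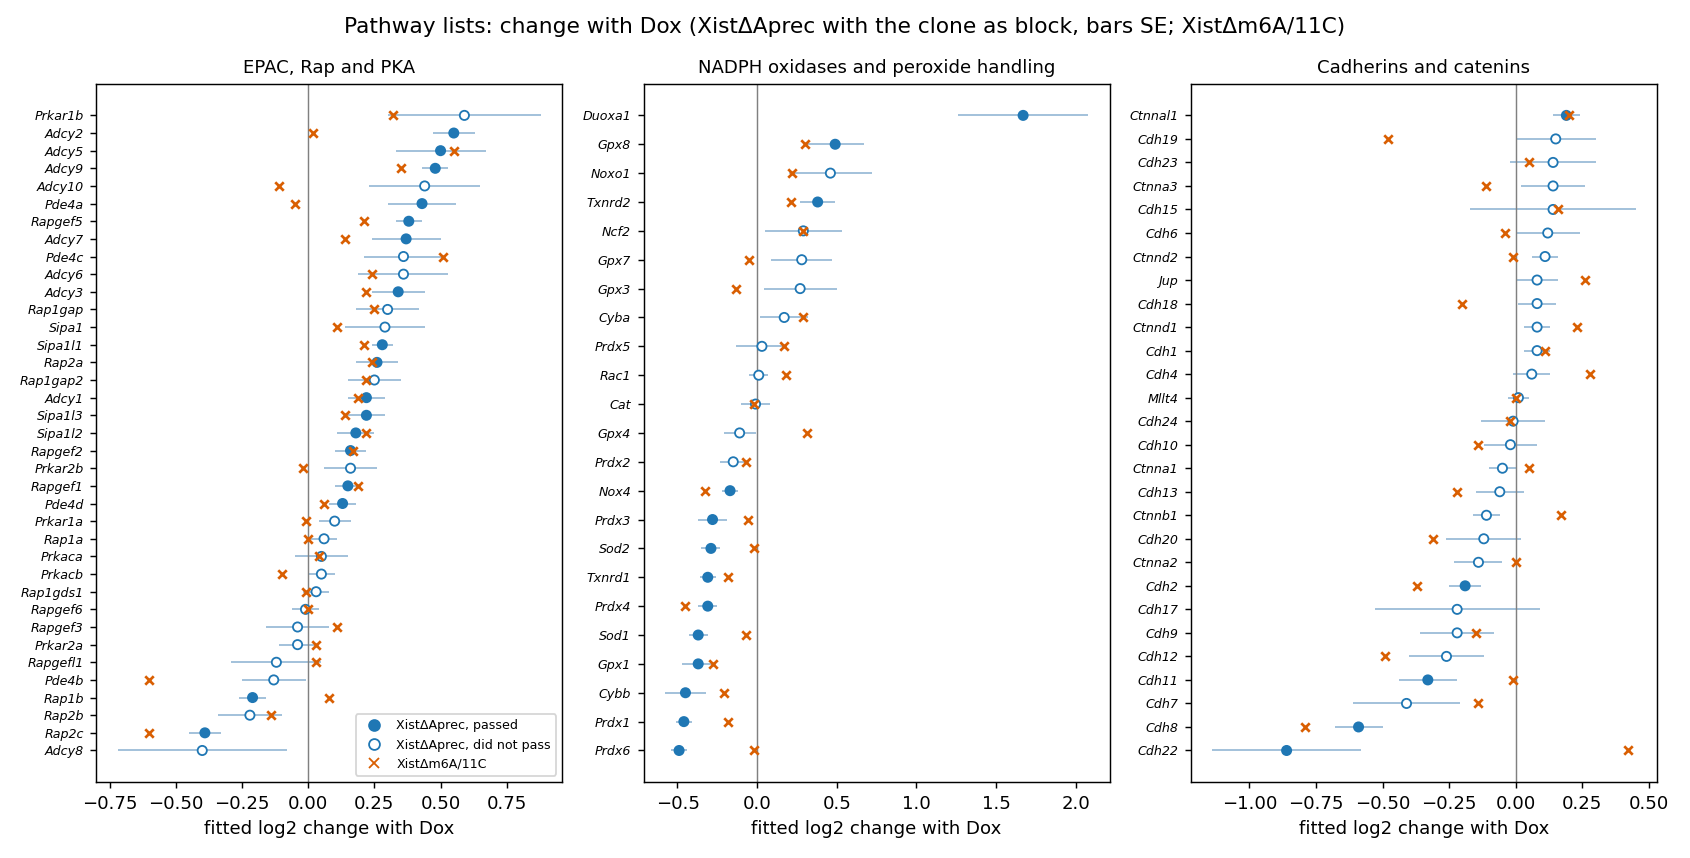
Fitted log2 change with Dox of each tested gene of the 3 pathway lists, without the members; circles are XistΔAprec with the clone as a term (filled where the gene passed, bars SE) and crosses XistΔm6A/11C. Most genes of the EPAC, Rap and protein kinase A list lie above 0 (15 rose, 2 fell), and most peroxide-handling genes that passed lie below it (3 rose, 10 fell).

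Between the deletion lines without Dox, 2 of 37 genes of the EPAC list were higher and 8 lower in XistΔAprec, 6 of 22 oxidase and peroxide genes were higher and 2 lower, and 8 of 28 cadherins and catenins were higher and 0 lower, against 11.9% higher and 11.2% lower over all tested genes. Cdh2 was among these, at a log2 difference of 1.13 (SE 0.17, edgeR adjusted p = 0.00365), as was Rap1b at 0.90 (SE 0.13, edgeR adjusted p = 0.00382).

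The autosomal genes were also ordered by their smallest log2 change over the 6 pairs, an order that restates the choice of the members and is given to show the genes around them. Rapgef4 ranked 1 of 15613 with 2.46, Duox1 ranked 2 with 2.18 and Cdh3 ranked 7 with 0.79, and 1508 genes were higher in all 6 pairs. Genes with a log2 change of at least 1 in each pair numbered 3, namely Rapgef4, Duox1 and Pvalb. Pvalb, the calcium-binding protein parvalbumin, had 0 or 1 counts in each library without Dox and 3 to 24 with Dox, so its smallest log2 change of 1.80 rests on the 0.5 added to each count. Between Duox1 and Cdh3 in that order were Pvalb, Duoxa1 (0.95), the transcription factor Tfap2a (0.86) and the nuclear receptor Ppara (0.81), and the gene just past Cdh3 was Gprc5a (0.68). Tfap2a was at 0.186 to 0.537 CPM without (4 to 14 counts) and 0.474 to 2.67 CPM with Dox, Ppara at 0.882 to 1.38 (23 to 30 counts) and 1.91 to 2.47 CPM, and Gprc5a at 2.96 to 5.71 and 4.51 to 9.61 CPM. The libraries with and without Dox overlapped for Tfap2a and Gprc5a and not for Ppara.

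The genes whose levels went most like each member's were ranked by Pearson's r of log2 CPM over the 12 libraries among 16254 genes, as a description of libraries that fall into those with and without Dox. For Rapgef4 they were Shf (0.973), Duox1 (0.964), Xist (0.953), R3hdm2 (0.945) and Pvalb (0.932). For Duox1 they were Rapgef4 (0.964), R3hdm2 (0.934), Cdh3 (0.929), Shf (0.920) and Pvalb (0.918). For Cdh3 they were Duox1 (0.929), Pvalb (0.923), Rapgef4 (0.920), Cux1 (0.917) and 1110034G24Rik (0.915). That the members are near each other here follows in large part from their choice by a rise over the same libraries. Xist was among the nearest 5 of Rapgef4 alone. The size of the change was not part of this measure: R3hdm2 went from a median of 117 to 138 CPM and Cux1 from 231 to 282 CPM, small steps beside those of Rapgef4.

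Markers of mESCs and of other cells that such cultures could hold were read in each library beside the members. Of 8 mESC markers 7 were detected, with a summed level of 1317 to 1738 CPM (median 1658) without Dox and 1209 to 2112 CPM (median 1811) with Dox, and Zfp42 or Esrrb as the most abundant. The sum did not stand for the list: in XistΔAprec with the clone as a term 4 of 7 tested fell and 1 rose, Zfp42 (0.40, SE 0.05, adjusted p = 1.14e-07, higher in 3 of 3 clones), where 14.9% of all tested genes fell and 14.8% rose. Without that term edgeR called 0 of 7, with 3 at an unadjusted p under 0.05 and 2 called by DESeq2, and in XistΔm6A/11C 0 of 7 on any of these counts. With the replicate number as a term 1 of 7 fell in XistΔm6A/11C, where 203 of 15140 tested genes fell. Sox2 was at 0 in every library, as its span lies inside that of Sox2ot on the same strand, where such reads are not counted. The lowest sum was in XistΔm6A/11C replicate 2 with Dox, the Dox library with the lowest Cdh3; the part of this in the members' levels was not tested.

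The 8 feeder fibroblast markers summed to 32.0 to 62.4 CPM (median 53.5) without Dox and 28.8 to 63.9 CPM (median 49.0) with Dox, most of it Fbn1, with 0 to 2 of the 8 at 0 in a library. The 8 trophoblast markers, led by Tfap2c, summed to 21.9 to 48.5 CPM (median 25.9) without and 25.5 to 41.6 CPM (median 28.8) with Dox, with 0 or 1 at 0 in a library. The 6 primitive endoderm markers, led by Dab2, summed to 32.7 to 65.98 CPM (median 47.2) without and 37.5 to 66.1 CPM (median 49.3) with Dox. The 6 markers of the early germ layers, led by Otx2, summed to 29.1 to 81.6 CPM (median 40.95) without and 26.2 to 64.5 CPM (median 33.5) with Dox, and Sox1, which lies inside Gm5607, was at 0 throughout. For each of these lists the libraries with and without Dox overlapped. Those of Rapgef4, Duox1 and Cdh3 did not, which is fixed by their choice. Of 16254 tested genes, 42 (0.258%) had all libraries with Dox above all without it, so nothing is read from that contrast. In XistΔAprec with the clone as a term 1 of 5 tested trophoblast and 1 of 4 germ-layer markers rose, 1 of 6 primitive endoderm markers fell, and 0 of 6 feeder markers passed by either tool or at an unadjusted p under 0.05; 14.8% of all tested genes rose and 14.9% fell. Without that term edgeR and DESeq2 called 0 markers of the trophoblast, primitive endoderm and germ-layer lists, with 1, 0 and 1 at an unadjusted p under 0.05. Between the lines without Dox, 4 of 7 mESC markers and 3 of 6 feeder markers were higher in XistΔAprec, 1 of 5 trophoblast and 3 of 6 primitive endoderm markers were lower, and of 4 germ-layer markers 1 was higher and 2 were lower, against 11.9% higher and 11.2% lower over all tested genes. The feeder sum was 56.6, 54.1 and 62.4 CPM in clones C1, 2C2 and C11 against 40.55 and 32.0 CPM in the XistΔm6A/11C replicates, in cells pre-plated to free them of feeders. The part of these gaps in the levels of the members was not tested.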

How the data were processed

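ChrRNA-seq libraries were deposited by the authors as counts per gene, made with Bowtie2 2.3.2 and STAR 2.4.2a on mm10 per the labels and featureCounts 1.5.2 per the file headers. The deposited counts cover whole transcript spans with introns on the sense strand, in 3 columns for all reads, Castaneus reads and 129S reads. The genome holding nearly all Xist allelic counts was taken as 129S. Genes were tested on the raw counts with edgeR 4.0.16 in R 4.3.3 (quasi-likelihood, TMM scaling, filterByExpr with a minimum count of 10, two-sided, Benjamini-Hochberg adjusted p under 0.05 over all genes tested), within XistΔAprec, within XistΔm6A/11C and between these lines without Dox. DESeq2 1.42.0 was an alternative, with other size factors, no count filter, the clone or replicate number as a block, 1 fit of all 12 libraries and each library left out. Log2 changes of pairs used TMM-scaled CPM with 0.5 added to each count. Clone names pair the XistΔAprec libraries: deviations from the group means of the libraries of a clone correlated at 0.595, 0.368 and 0.537 for C1, 2C2 and C11. Shares have exact Clopper-Pearson 95% intervals (scipy 1.17.1 in Python 3.11.15). Depth was 18893447 to 36007145 counts a library.

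The members and the gene lists were chosen with earlier results of these data known. Besides the members and Xist, the genes named are fixed direct partners, up to 5 genes of each list or of the 500 kb around the members that passed with or without the block and changed most, the 2 nearest tested genes on each side of a member, the 5 genes most correlated with each member, the 5 other autosomal genes with the highest smallest change over 6 pairs and the most abundant markers. The fits were tested on simulated data.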

Additional observations from a re-analysis of the deposited data

Results flagged for a closer look

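For 3 of the genes named beside Rapgef4, Duox1 and Cdh3, all XistΔAprec pairs were lower with Dox and all XistΔm6A/11C pairs above 0, by as little as 0.01 for Rap1b and 0.02 for Smpd3; the difference between the lines was not tested. The mean log2 change of the cadherin Cdh22 was -0.90 in XistΔAprec and 0.37 in XistΔm6A/11C, with WT at -0.46, on only 11 to 30 counts in a library without Dox and 8 to 52 with Dox. That of Rap1b was -0.21 and 0.09, with WT at -0.10, and that of Smpd3, a sphingomyelinase gene before Cdh3, was -0.33 and 0.06, with WT at 0.29.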

How the results depend on the processing

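The log2 change of Rapgef4, Duox1 and Cdh3 with Dox moved by at most 0.12 under 30 alternatives for 9 values that kept all libraries of the line (Cdh3 in XistΔm6A/11C with the replicate block). With a library left out Cdh3 in XistΔm6A/11C ran from 0.78 to 1.71 and Duox1 there from 2.19 to 2.97. Pooling counts moved a parental share by at most 3.87 points, and with a library left out that of Duox1 in XistΔm6A/11C without Dox ran from 66.7 to 88.9%. With 2 or 3 libraries a left-out one shifts the mean by less than 1 SD by arithmetic, so these ranges say nothing of stability. In XistΔAprec, edgeR called 3 genes, against 4410 with the replicate block, 4517 with the replicate block and no count filter (added later), 421 with DESeq2 and 0 to 2 with a clone left out (0 without 2C2). With the replicate block the neighbours that passed went from 0 to 15, and the genes of the EPAC, oxidase and cadherin lists from 0 to 17, 13 and 5. In XistΔm6A/11C, where the replicate numbers are shared only as numbers, edgeR called 0 genes, against 237 with the replicate block (1 near the members, Shf, and 1 of 7 mESC markers, which fell), 3 with DESeq2, 2 with no count filter, 2 in the fit of all 12 libraries and 1 without either replicate, where the lone library is assumed to vary like the other groups. The correlation of deviations for the same number was 0.691. Genes differing between the lines without Dox numbered 1119 to 3144 with a library left out (1119 without clone 2C2, 2073 without C11). Among 442 alternatives for the printed fitted values of single named genes, 379 kept direction and side of the threshold, 58 passed where they had not and 5 changed sign, all of values that passed no test. This set was narrowed to printed values after a wider one had been seen; over all named genes in the 3 comparisons 38 of 1036 changed sign, none of which passed a test in either fit. Besides Xist and the members, no gene named for its Dox change passed in the edgeR fit without the block, so its alternatives could not lose a call. The 25 that passed in XistΔAprec with the block passed in no edgeR fit without it, and 7 passed with DESeq2; the block was not run with a clone left out. With a library left out, Prkaca ran from -0.09 (without C11) to 0.13 and Rapgef3 from -0.15 to 0.04 (without C11) in XistΔAprec, Rap1b from -0.00 (without replicate 2) to 0.16 in XistΔm6A/11C, and Cdh3 between the lines from -0.16 to 0.11 (0.03 without clone 2C2 and 0.11 without XistΔm6A/11C replicate 1). A left-out library moved 2 of 27 values that passed in the main fit or with the clone as a term by over 1.5 times (Adcy5 and Cdh11), and 21 of 23 others, most of them near 0. The cause of these shifts was not tested. Depth limits Duox1, Duoxa1, Duox2, Duoxa2, Pvalb and Tfap2a, whose levels without Dox rest on at most 24 counts in a library, and Cdh22 and Ppara, on at most 30.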
